A study of Rattus norvegicus with 11 samples.

Results

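The genes followed here belong to endoplasmic reticulum (ER) stress and the integrated stress response, measured in rat small intestine after brain death and vagus nerve stimulation. They were 10 genes, Atf4, Atf6, Ddit3, Asns, Trib3, Xbp1, Herpud1, Ppp1r15a, Eif2ak3 and Nupr1, taken from the array table by symbol and Entrez gene number, and 10 of 10 had a probe set among the 11427 compared. Each sample was run on 1 Affymetrix array, and there were 11 arrays. NBD was anaesthetised, ventilated rats without brain death (3 arrays, replicates 1, 3 and 4), BD was brain-dead rats without stimulation (4 arrays, replicates 1, 3, 4 and 6) and BD_VNS was brain-dead rats given vagal stimulation (4 arrays, replicates 1 to 4). Tissue was taken after 6 hours in every group. The labels describe all the rats as transgenic and name no gene, and they do not say whether each array is a separate animal, so the p-values measure the spread between these arrays, which may be technical. The design compares brain death, with and without stimulation, with ventilation alone. All levels are log2 values, a change is a difference between group means of log2 levels, and a gene passed when its limma p, after Benjamini-Hochberg adjustment across the 11427 probe sets, was under 0.05.

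Proteins that fold badly in the ER are sensed by membrane proteins that start the unfolded protein response. PERK, the product of Eif2ak3, phosphorylates the initiation factor eIF2 alpha, which lowers protein synthesis in general and raises translation of ATF4. Other kinases that sense amino acid shortage, viral RNA or heme deficiency act on the same site, and the shared programme is called the integrated stress response. ATF6 is cut to a transcription factor, and IRE1 splices Xbp1 mRNA into the form that encodes an active one. Both raise chaperones and the machinery that returns misfolded proteins to the cytosol for degradation (ER-associated degradation). In the intestine, secretory cells such as goblet, Paneth and plasma cells depend on this response. Since much of it acts through translation, splicing and cleavage, mRNA levels show part of it, and with 1 probe set per gene the spliced and unspliced forms of Xbp1 were not separated.

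Promoters were read from the RefSeq table of the GRCr8 build, as 250 bases before to 50 bases after a gene's start, and 9 of the 10 genes had one. Atf6 had no entry. Searched on both strands were the ER stress elements ERSE (CCAAT, then any 9 bases, then CCACG) and ERSE-II (ATTGG, then any 1 base, then CCACG), the ATF4 and C/EBP composite element CARE (TGATGNAA), the unfolded protein response element UPRE (TGACGTGG) and the cAMP response element CRE (TGACGTCA). The promoters of Herpud1, Nupr1 and Xbp1 are shown because the results below turn on the first 2 and because Xbp1 carries the full ERSE. Capitals mark the motif matches, and each sequence runs 5′ to 3′ along the gene's own strand.
Herpud1, chr19:10614658-10614957, minus strand: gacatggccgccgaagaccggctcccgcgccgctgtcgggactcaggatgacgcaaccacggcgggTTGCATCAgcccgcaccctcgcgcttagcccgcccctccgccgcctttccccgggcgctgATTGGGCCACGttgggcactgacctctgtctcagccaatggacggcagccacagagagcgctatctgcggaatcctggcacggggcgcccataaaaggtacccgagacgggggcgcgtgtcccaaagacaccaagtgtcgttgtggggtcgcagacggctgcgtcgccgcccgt
Nupr1, chr1:190645852-190646151, minus strand: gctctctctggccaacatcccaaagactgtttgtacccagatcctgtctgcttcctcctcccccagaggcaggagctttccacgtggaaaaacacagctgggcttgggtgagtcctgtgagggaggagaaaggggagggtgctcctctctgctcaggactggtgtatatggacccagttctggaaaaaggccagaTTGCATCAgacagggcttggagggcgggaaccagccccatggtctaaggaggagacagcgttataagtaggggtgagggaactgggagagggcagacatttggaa
Xbp1, chr14:84604373-84604672, plus strand: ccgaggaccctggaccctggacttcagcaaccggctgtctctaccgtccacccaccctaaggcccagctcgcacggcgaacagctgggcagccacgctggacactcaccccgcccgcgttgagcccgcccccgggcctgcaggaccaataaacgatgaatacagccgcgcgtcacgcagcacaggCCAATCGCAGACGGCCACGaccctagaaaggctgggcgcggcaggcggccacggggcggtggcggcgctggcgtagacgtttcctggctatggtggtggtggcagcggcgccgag

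In Herpud1 the ERSE-II lay 124 to 114 bases before the start and a CARE lay 184 to 177 bases before it. The Herpud1 window belongs to a start inside the annotated extent of the gene (chromosome 19, 10604360 to 10624168). In Nupr1 a CARE lay 55 to 48 bases before the start, and in Xbp1 the ERSE lay 65 to 47 bases before it. Trib3 also held a CARE (21 to 14 bases before the start), and Ppp1r15a held a CRE (66 to 59 bases before the start). Of all 33469 promoter windows in the table, 0.0508% held an ERSE-II, 0.0657% an ERSE, 3.98% a CARE, 1.83% a CRE and 0.595% a UPRE. No motif of this set matched the windows of Atf4, Ddit3, Asns and Eif2ak3. The Asns window (36769366 to 36769665) lies inside the annotated extent of the gene (chromosome 4, 36752061 to 36769970). Bases before the outer end of Asns were therefore not searched. The Eif2ak3 window also belongs to a start inside the annotated extent of its gene. The matches describe letters in these windows and show no binding.

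BD 4 and BD 6 stood apart from the rest through pancreatic transcripts. The mean level of 20 acinar cell markers reached 13.5 in the former and 12.9 in the latter. The other 9 arrays ranged from 6.87 to 7.63, with BD_VNS 3 (7.63) and BD_VNS 4 (7.47) highest. Each of the 20 markers exceeded, in both arrays, the mean of BD 1 and BD 3. The most abundant acinar markers, Cela1, Pnliprp2 and Cpb1, reached 13.97, 13.565 and 14.11 in BD 4. Enterocyte markers were abundant in every array (mean of 11 markers 12.27 to 12.71), led by Fabp1, Lgals4 and Fabp2. Signal at the 3' end relative to the 5' end of Gapdh and Actb, a log2 ratio read from control probe sets as a sign of RNA quality, was 0.69 to 0.87 in NBD, 0.76 to 0.89 in BD, 0.75 in BD_VNS 2 and 1.03 to 1.10 in the other 3 BD_VNS arrays. Results on the BD group are therefore also given without this pair of arrays.

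**Figure D1:**
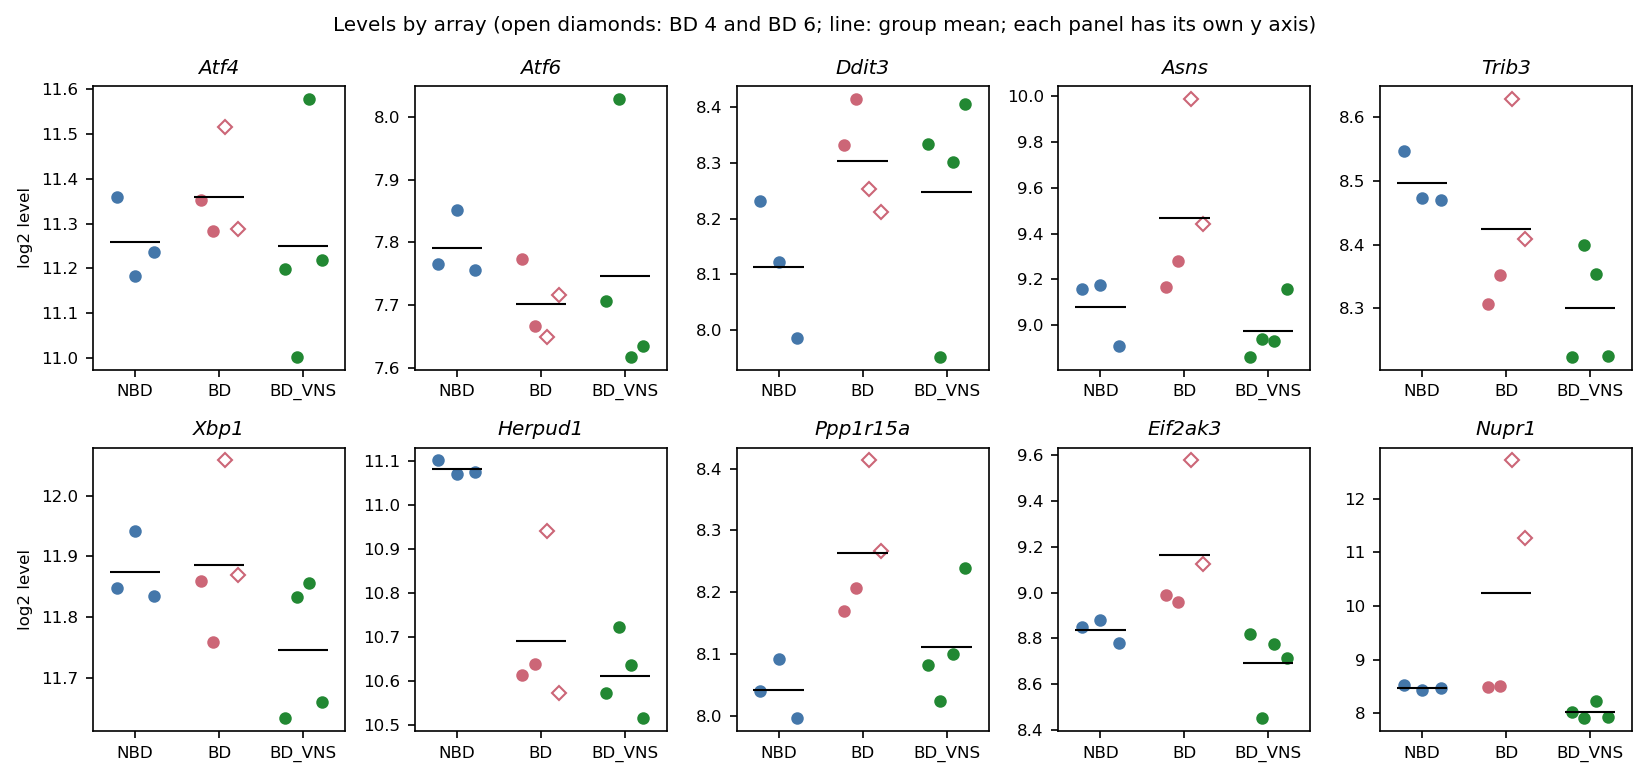
Log2 level of each of the 10 genes (y axis, a separate scale per panel) in every array of NBD, BD and BD_VNS (x axis); points are arrays, open diamonds are BD 4 and BD 6, and lines are group means. Herpud1 lies between 11.07 and 11.10 in the 3 NBD arrays and at 10.94 or below in the other 8, and Nupr1 is at 12.72 in BD 4 and 11.28 in BD 6.

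Herpud1 was the member that fell after brain death. It encodes an ER membrane protein with a ubiquitin-like domain that helps to assemble the degradation complex, and it is a standard target of the unfolded protein response. Its level was 11.10, 11.07 and 11.07 in NBD 1, 3 and 4. It was 10.61, 10.64, 10.94 and 10.57 in BD 1, 3, 4 and 6. In BD_VNS 1 to 4 it was 10.57, 10.72, 10.64 and 10.52. The NBD arrays were nearly identical and lay above all 8 arrays of brain-dead rats, and BD 4, the array with the most pancreatic transcript, was the highest of the 8. The fall from 11.08 ± 0.017 (SD, n = 3) to 10.69 ± 0.17 (SD, n = 4) was 1.31-fold (log2 change -0.39 ± 0.08, SE; adjusted p = 0.0163 by limma). Without BD 4 and BD 6 the change was -0.45 (adjusted p = 0.00498). The call was lost when any one NBD array was left out, at a similar size (adjusted p = 0.0645, 0.0583 and 0.0520 without NBD 1, 3 and 4).

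With stimulation Herpud1 was at 10.61 ± 0.09 (SD, n = 4), which was 1.38-fold below NBD (-0.47 ± 0.08, SE; adjusted p = 0.00474). BD_VNS did not differ detectably from BD (-0.08, 95% interval -0.24 to 0.08; adjusted p = 0.568), and without BD 4 and BD 6 the interval was -0.14 to 0.12. After adding the 3' end signal ratio to the model the change from NBD to BD_VNS was -0.39 and no longer passed (adjusted p = 0.0738). In bulk tissue, fewer cells of a type and less RNA per cell cannot be told apart. Among cell markers in BD against NBD, 4 of 11 enterocyte markers, Anpep, Slc2a2, Apob and Cdx1, fell and 0 rose (list mean 12.63 to 12.71 in NBD and 12.27 to 12.54 in BD), and 2 of 6 smooth muscle markers, Des and Cnn1, rose and 0 fell (10.37 to 10.68 and 10.68 to 11.13). The most abundant enterocyte markers, Fabp1, Lgals4 and Fabp2, did not pass (adjusted p = 0.0812, 0.302 and 0.167). The 3 most abundant smooth muscle markers, Actg2, Tagln and Myl9, did not pass either (adjusted p = 0.0509, 0.130 and 0.309). Without BD 4 and BD 6, 3 of the 11 enterocyte markers fell and 2 of the 6 smooth muscle markers rose. The part of these cells in the Herpud1 result was not tested.

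Across the other 9 genes in BD against NBD, none passed with limma. An unadjusted p under 0.05 was found for 4 of the 10 genes, Herpud1, Ppp1r15a, Eif2ak3 and Asns. Such p-values were common among all probe sets. Nupr1, with an unadjusted limma p of 0.0518, ranked 2191 of 11427 by p, so this count does not set the genes apart. One member of 10 called stands against a background of 5.73% of all probe sets called in this comparison (655 of 11427), or 3.63% called lower, so the count itself does not set these genes apart. Without BD 4 and BD 6, Herpud1 was again the 1 member called, beside 2.56% of probe sets (1.62% lower). The median change of the 10 genes was 0.14, against -0.0064 over all probe sets, and with those arrays left out it was 0.038. Groups did not overlap for Herpud1, lower in BD, and for Ppp1r15a and Eif2ak3, higher in BD, and 20.4% of all probe sets did not overlap (9.03% higher, 11.4% lower).

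**Figure D2:**
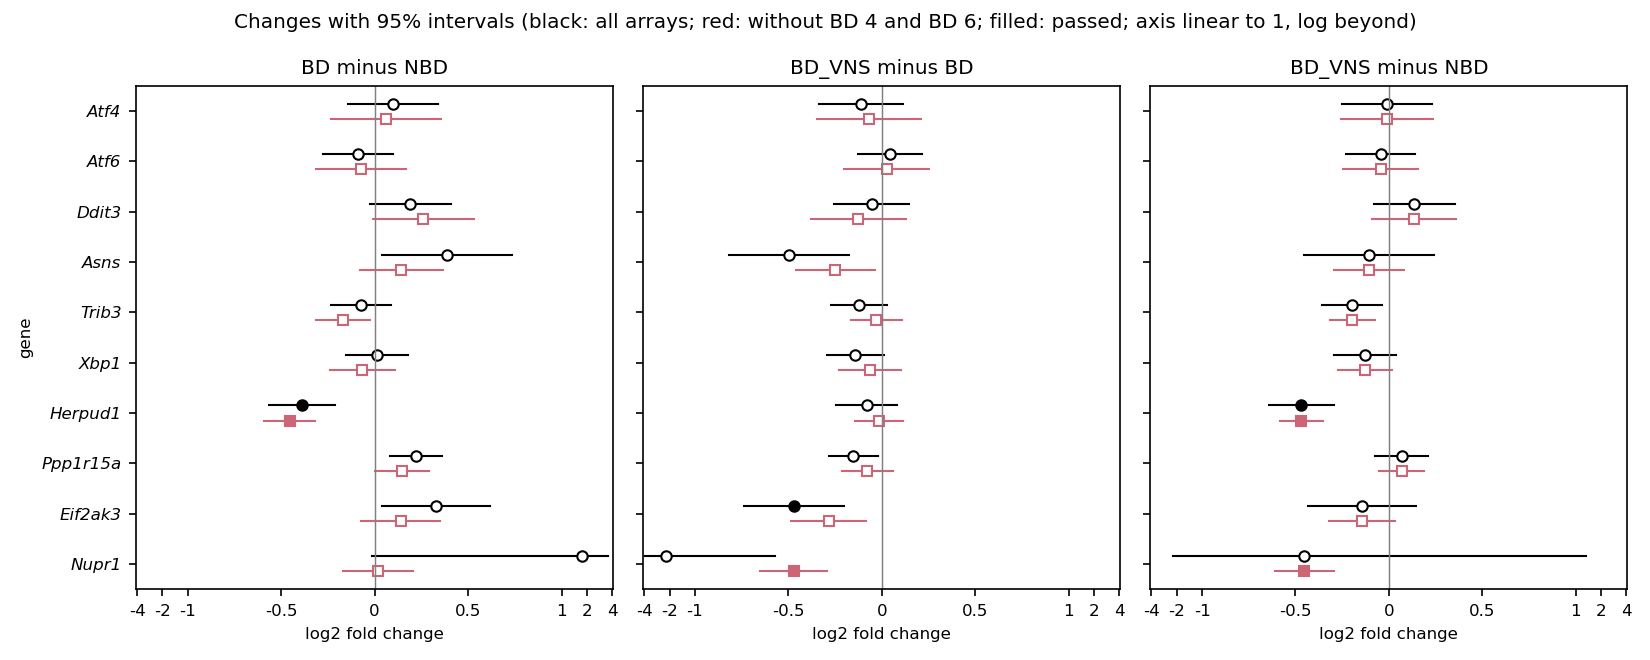
Log2 fold change (x axis, linear to 1 and logarithmic beyond) of each gene (y axis) in the 3 comparisons, with 95% intervals; black circles use all arrays, red squares leave out BD 4 and BD 6, and filled symbols passed. Herpud1 is filled in both comparisons with NBD under both settings, and the Nupr1 intervals narrow when BD 4 and BD 6 are left out.

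The gene of the sensor IRE1 was not among the genes read. Of Eif2ak3, Atf6 and Xbp1, which encode the sensors PERK and ATF6 and the transcription factor XBP1, Eif2ak3 had the widest range, 1.12 log2 units. Its level was 8.85, 8.88 and 8.78 in NBD 1, 3 and 4. In BD 1, 3, 4 and 6 it was 8.99, 8.96, 9.58 and 9.12. In BD_VNS 1 to 4 it was 8.82, 8.45, 8.78 and 8.71. All BD arrays lay above all arrays of the other groups, with BD 4 far above the others and BD_VNS 2 the lowest. The change from NBD to BD was 0.33 ± 0.13 (SE; adjusted p = 0.201), and without BD 4 and BD 6 it was 0.14 (adjusted p = 0.522). Eif2ak3 was the one member that passed in BD_VNS against BD, where it fell 1.39-fold (-0.47 ± 0.12, SE; adjusted p = 0.0465). Without BD 4 and BD 6 the change was -0.28 (95% interval -0.48 to -0.08; adjusted p = 0.144), and with single arrays removed the call was kept in 3 of 11 fits, those without BD 1, BD 3 or BD 4. Over all its alternatives the adjusted p was 0.0188 to 0.177.

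Atf6, the sensor that becomes a transcription factor after cleavage, was at 7.79 ± 0.05 (SD, n = 3) in NBD, 7.70 ± 0.06 (SD, n = 4) in BD and 7.75 ± 0.19 (SD, n = 4) in BD_VNS. BD_VNS 2 was the highest array of all at 8.03 and the other 3 BD_VNS arrays lay between 7.62 and 7.71. Atf6 did not pass in any of the 3 comparisons, and its adjusted p was 0.633 after brain death, 0.778 between BD and BD_VNS, and 0.828 between NBD and BD_VNS. Xbp1, which drives ER expansion in secretory cells, was at 11.85, 11.94 and 11.83 in NBD 1, 3 and 4. It was at 11.86, 11.76, 12.06 and 11.87 in BD 1, 3, 4 and 6, and at 11.63, 11.83, 11.86 and 11.66 in BD_VNS 1 to 4. The groups overlapped, with BD 4 highest and BD_VNS 1 lowest. Its change was 0.012 after brain death (95% interval -0.15 to 0.18), and BD_VNS differed by -0.14 from BD (-0.29 to 0.01) and by -0.13 from NBD (-0.29 to 0.04). The sign of the first turned to negative with quantile normalization and with median centring of the arrays.

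Atf4 and Ddit3, which encode transcription factors of the integrated stress response, showed small differences that passed in no comparison with all arrays. Atf4, the main transcription factor of this response, was at 11.26 ± 0.09 (SD, n = 3) in NBD, 11.36 ± 0.11 (SD, n = 4) in BD and 11.25 ± 0.24 (SD, n = 4) in BD_VNS. BD_VNS 2 was the lowest of all arrays and BD_VNS 3 the highest at 11.58, so the stimulated arrays covered the range of the other groups. Its interval in BD against NBD was -0.14 to 0.34 (adjusted p = 0.693). Ddit3 encodes CHOP, a transcription factor that promotes cell death under lasting ER stress. Its level was 8.23, 8.12 and 7.99 in NBD, 8.33, 8.42, 8.25 and 8.21 in BD 1, 3, 4 and 6, and 8.33, 7.95, 8.30 and 8.41 in BD_VNS 1 to 4. BD 1 and BD 3 lay above BD 4 and BD 6, and BD 6 lay below NBD 1, so NBD and BD overlapped. The change was 0.19 ± 0.10 (SE; adjusted p = 0.336) in BD against NBD and 0.26 without BD 4 and BD 6 (adjusted p = 0.314). In BD_VNS against NBD it was 0.13 (adjusted p = 0.480). Without BD_VNS 2 it was 0.23 and passed (adjusted p = 0.0473), but leaving out the lowest array must raise the group mean. The BD_VNS arrays kept had 3' end signal ratios of 1.03 to 1.10, against 0.75 in BD_VNS 2. With this ratio in the model and all arrays kept, the change was -0.025.

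Asns makes asparagine and is a classical target of ATF4. Its level was 9.16, 9.18 and 8.91 in NBD 1, 3 and 4, and 9.17, 9.28, 9.99 and 9.44 in BD 1, 3, 4 and 6. In BD_VNS 1 to 4 it was 8.86, 8.94, 8.93 and 9.16. BD_VNS lay below BD in every array, with BD 4 the highest. The change from BD to BD_VNS was -0.50 ± 0.15 (SE; adjusted p = 0.0736) and it was -0.25 without BD 4 and BD 6 (adjusted p = 0.217). Without BD 1, the lowest BD array for this gene, it was -0.60 and passed (adjusted p = 0.0441). In the other 10 of 11 fits with a single array left out it did not pass. From NBD to BD it was 0.39 (adjusted p = 0.208) and 0.14 without these arrays (adjusted p = 0.537).

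Ppp1r15a and Trib3 encode feedback regulators. Ppp1r15a encodes GADD34, the subunit that directs a phosphatase to eIF2 alpha and so restores translation. It was at 8.04, 8.09 and 7.996 in NBD 1, 3 and 4. It was at 8.17, 8.21, 8.41 and 8.27 in BD 1, 3, 4 and 6. In BD_VNS 1 to 4 it was at 8.08, 8.02, 8.10 and 8.24. BD lay above NBD in every array, by 0.22 ± 0.06 on average (SE; adjusted p = 0.0730), and by 0.15 without BD 4 and BD 6 (adjusted p = 0.297). Trib3 encodes a pseudokinase that restrains ATF4 and CHOP. It was at 8.50 ± 0.04 (SD, n = 3) in NBD, 8.42 ± 0.14 (SD, n = 4) in BD and 8.30 ± 0.09 (SD, n = 4) in BD_VNS. The highest BD_VNS array, at 8.40, lay below the lowest NBD array, at 8.47, and the difference of -0.20 had an adjusted p of 0.132. Without BD 4 it passed at the same size (adjusted p = 0.0431), and leaving out BD 6 as well ended that call (adjusted p = 0.0517).

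Nupr1 had the widest range of the 10 genes, 4.81 log2 units. It encodes a small stress-induced chromatin protein that was first described in rat pancreas with pancreatitis. Its level was 8.52, 8.43 and 8.48 in NBD 1, 3 and 4. It was 8.48, 8.50, 12.72 and 11.28 in BD 1, 3, 4 and 6. In BD_VNS 1 to 4 it was 8.02, 7.91, 8.22 and 7.93. BD 1 and BD 3 lay within the range of NBD, BD 4 and BD 6 were 4.23 and 2.79 above their mean, and the 4 BD_VNS arrays were the lowest of all 11. With every array included no comparison passed for Nupr1: the change was 1.77 ± 0.82 (SE) in BD against NBD (adjusted p = 0.270) and -2.22 ± 0.76 (SE) in BD_VNS against BD (adjusted p = 0.107). It was -0.45 ± 0.82 (SE) in BD_VNS against NBD (adjusted p = 0.817).

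Without BD 4 and BD 6, Nupr1 fell by 0.47 in BD_VNS against BD (adjusted p = 0.0327; 95% interval -0.65 to -0.29) and by 0.45 in BD_VNS against NBD (adjusted p = 0.00442; 95% interval -0.61 to -0.30). The change in BD against NBD was then 0.017 (95% interval -0.17 to 0.21). With those arrays left out, 1.33% of probe sets passed between BD and BD_VNS (1.23% lower) and 8.34% between NBD and BD_VNS (4.88% lower). In the fit with only NBD and BD_VNS the second call was also made (adjusted p = 0.00842). Each of the 2 Nupr1 calls was made in 2 of 23 alternatives, for the second in the 2 fits just given. Neither was made with all arrays and the acinar level as a covariate, where 0 of the 10 genes passed between BD and BD_VNS. Of the 20 acinar markers, 19 had a higher mean in BD_VNS than in NBD. The mean over the list was 6.95, 6.98, 7.63 and 7.47 in BD_VNS 1 to 4, and 6.92 to 6.99 in NBD. Only BD_VNS 3 and BD_VNS 4 thus lay above NBD in this mean. Of 6 macrophage markers, 4 (Tyrobp, Csf1r, Aif1 and Cd68) fell and 0 rose in BD_VNS against each of the other groups, with list means of 8.10 to 8.30 in NBD, 8.24 to 8.38 in BD and 7.59 to 7.91 in BD_VNS. Means of 6 goblet and Paneth cell markers were 11.84 to 11.89 in NBD, 11.68 to 11.99 in BD and 10.98 to 11.57 in BD_VNS, where Zg16, Tff3 and Clca1 fell against BD, Zg16 and Tff3 fell against NBD, and 0 rose. Means of 6 B and plasma cell markers were 8.38 to 8.52 in NBD, 8.54 to 9.04 in BD and 7.94 to 8.62 in BD_VNS, where Mzb1 and Tnfrsf17 fell and 0 rose against BD. These marker calls are from the fit with all arrays. Without BD 4 and BD 6, 0 of the 6 B and plasma cell markers passed with limma against BD (5 with an unadjusted p under 0.05). In that fit 4 of 6 macrophage markers and 3 of 6 goblet and Paneth cell markers fell against BD. With all arrays and the 3' end signal ratio in the model, 0 of the 6 B and plasma cell markers passed against BD. In the same model 3 of 6 macrophage markers and 2 of 6 goblet and Paneth cell markers fell. Of the B and plasma cell markers Sdc1, which epithelial cells also express, went the other way. Sdc1 rose by 0.46 in BD_VNS against NBD (adjusted p = 0.00228) and by 0.33 in BD against NBD (adjusted p = 0.0177). Agr2 and Jchain, among the most abundant of their lists, did not pass against BD (adjusted p = 0.0860 and 0.107). The part of these cells in the Nupr1 result was not tested.

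In BD_VNS against BD as a whole, 1 of the 10 genes was called, beside 5.56% of all probe sets (3.66% called lower), and 4 had an unadjusted p under 0.05. Of the 10 changes 9 were negative, with a median of -0.13 (0.026 over all probe sets), and the median was -0.073 without BD 4 and BD 6. Groups did not overlap for 3 genes, Asns, Eif2ak3 and Nupr1, all lower in BD_VNS, and 5.81% of all probe sets were lower without overlap. In BD_VNS against NBD 1 gene was called, Herpud1, beside 8.44% of all probe sets (4.8% lower), and Herpud1, Trib3 and Nupr1 were lower without overlap, as were 10% of all probe sets. Any 2 of the 3 comparisons share the arrays of 1 group, so their values are not independent.

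BD 4 was the highest BD array for 8 of the 10 genes and the highest of all 11 arrays for 6. Over all probe sets it was the highest BD array for 27.5% and the highest of all for 10.8%. Relative to the mean of BD 1 and BD 3, BD 4 was 0.76 higher for Asns, 0.60 for Eif2ak3, 0.31 for Herpud1, 0.30 for Trib3, 0.25 for Xbp1, 0.22 for Ppp1r15a and 0.20 for Atf4. The difference was -0.12 for Ddit3 and -0.07 for Atf6. In BD 6 the difference was 0.22 for Asns, 0.15 for Eif2ak3 and -0.16 for Ddit3. Of 23 other targets of ATF4 or CHOP, 19 were higher in BD 4 than the mean of BD 1 and BD 3 (median 0.21), beside 44.5% of all probe sets (median -0.018), and 13 of 23 were higher in BD 6. Chac1, which degrades glutathione and is an ATF4 target, was 1.66 higher in BD 4 and 0.84 higher in BD 6. Atf3, a transcription factor induced by ATF4, was 0.70 and 0.31 higher. ER chaperones did not share this pattern, since 4 of 19 were higher in BD 4 and 3 of 19 in BD 6 (medians -0.060 and -0.105). Nor did tRNA synthetases, many of them ATF4 targets, with 3 of 11 higher in BD 4 and 1 of 11 in BD 6. Of genes of ER import and other sensors, 16 of 21 were higher in BD 4 and 7 of 21 in BD 6. The counts were 8 and 5 of 15 for ER-associated degradation, and 4 and 3 of 10 for eIF2 control. Chac1 and Atf3 were named after their values were seen. These are single arrays with no test, and the share of pancreatic RNA in these values was not tested.

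**Figure D3:**
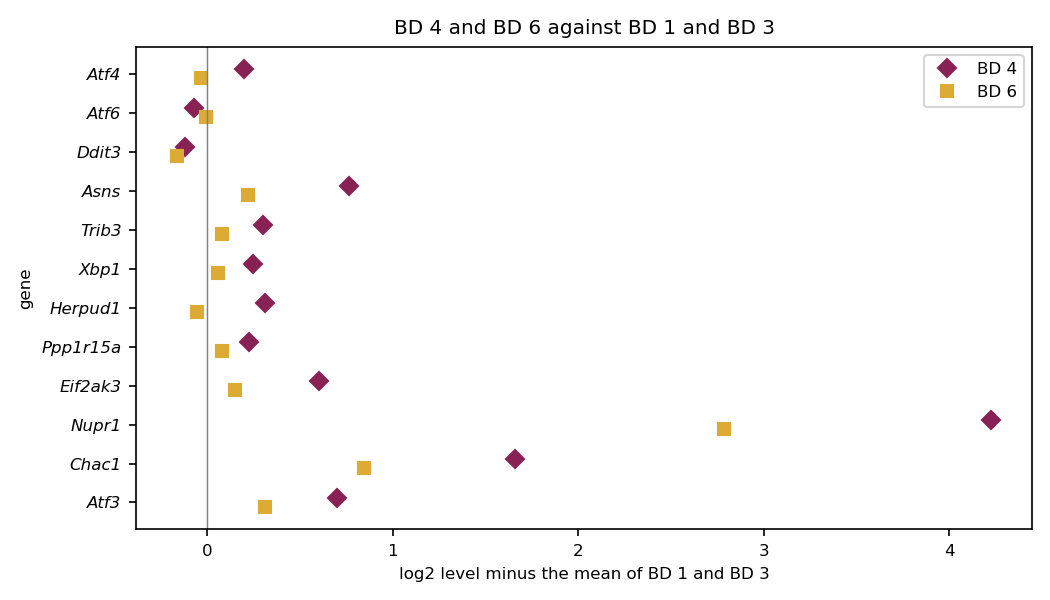
Log2 level in BD 4 (diamonds) and BD 6 (squares) minus the mean of BD 1 and BD 3 (x axis) for the 10 genes and for Chac1 and Atf3 (y axis). Nupr1 is 4.23 and 2.79 above, and Ddit3 and Atf6 lie below 0 in both arrays.

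Other genes of the pathway were read from 6 lists with 99 measured genes. In BD against NBD 8 passed (8.08%, beside 5.73% of all probe sets), of which 4 rose and 4 fell, and 4 of the 8 also passed without BD 4 and BD 6. In BD_VNS against BD 6 of the 99 passed (6.06%, beside 5.56% of all probe sets). In BD_VNS against NBD 12 passed (12.1%, beside 8.44%). Of 15 genes of ER-associated degradation, 2 fell, 0 rose and 13 did not pass in BD against NBD. Edem1, which extracts misfolded glycoproteins for degradation, was at 9.87, 9.63 and 9.75 in NBD 1, 3 and 4, 9.27, 9.29, 9.36 and 9.25 in BD 1, 3, 4 and 6, and 9.29, 9.40, 9.21 and 9.21 in BD_VNS 1 to 4. As for Herpud1, all NBD arrays lay above all arrays of brain-dead rats. Edem1 fell by 0.46 in BD (adjusted p = 0.00147; without BD 4 and BD 6 the change was -0.47, adjusted p = 0.0130) and by 0.47 in BD_VNS against NBD (adjusted p = 0.00118). Ube2g2, a ubiquitin-conjugating enzyme of this route, fell by 0.30 in BD (adjusted p = 0.00323) and by 0.36 in BD_VNS against NBD (adjusted p = 0.00126). Derl1, a channel protein of this route, rose by 0.21 in BD_VNS against NBD (adjusted p = 0.0450), and did not pass without BD 4 and BD 6 (adjusted p = 0.0690). For the list as a whole the median change was 0.029 in BD against NBD, and none passed with limma between BD and BD_VNS (3 with an unadjusted p under 0.05).

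Chaperones and folding enzymes of the ER showed little change. None of 19 passed with limma in BD against NBD, 4 had an unadjusted p under 0.05, and their median change was 0.055. Hspa5, the chaperone BiP and the usual readout of ER stress, was at 12.30, 12.06 and 11.96 in NBD 1, 3 and 4, 12.20, 12.11, 12.10 and 12.06 in BD 1, 3, 4 and 6, and 11.92, 12.16, 12.25 and 12.09 in BD_VNS 1 to 4. The 3 groups overlapped throughout, with changes of 0.012 in BD against NBD (adjusted p = 0.962) and -0.012 between BD and BD_VNS (adjusted p = 0.948). This gene was named for its role, outside the rule. P4hb, a protein disulfide isomerase, rose by 0.17 in BD_VNS against BD (adjusted p = 0.0348), a call not made without BD 4 and BD 6 (adjusted p = 0.228). With the 3' end signal ratio in the model, 0 of the 19 passed in this comparison. Ero1a, the oxidase that recharges these isomerases and is also induced by hypoxia, was at 9.03, 9.18 and 9.13 in NBD 1, 3 and 4, 9.50, 9.50, 9.38 and 9.32 in BD 1, 3, 4 and 6, and 10.005, 9.60, 9.57 and 9.86 in BD_VNS 1 to 4. The 3 groups did not overlap, and it rose by 0.65 in BD_VNS against NBD (adjusted p = 0.00229). Its changes of 0.31 in BD against NBD (adjusted p = 0.0899) and 0.34 in BD_VNS against BD (adjusted p = 0.0506) did not pass.

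**Figure D4:**
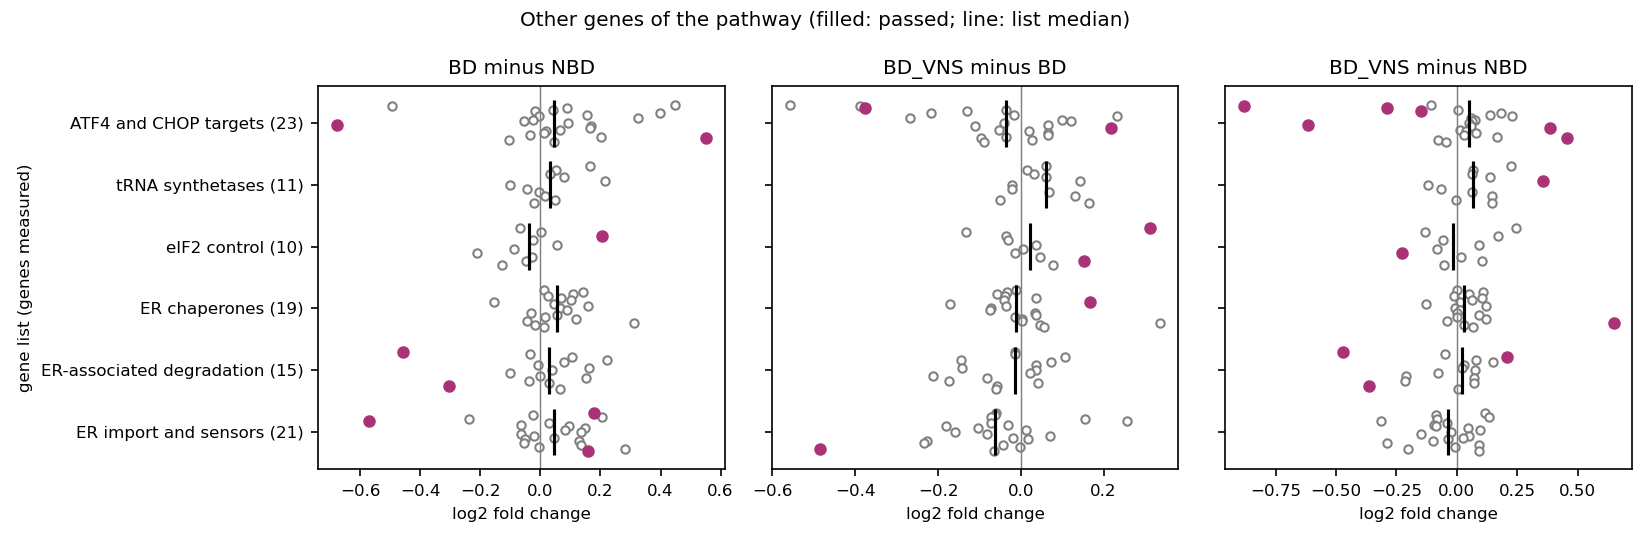
Log2 fold change (x axis, a separate scale per panel) of each measured gene of the 6 other pathway lists (y axis) in the 3 comparisons; filled points passed and vertical lines are list medians. List medians lie between -0.06 and 0.07 in all 3 comparisons, and the points that passed are few and lie on both sides of 0.

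Of the 23 other targets of ATF4 or CHOP, 1 rose and 1 fell in BD against NBD. Slc3a2, the heavy chain of amino acid exchangers, was at 12.05, 12.02 and 12.01 in NBD and between 11.23 and 11.60 in the 8 other arrays. It fell by 0.68 in BD (adjusted p = 0.00116; adjusted p = 0.00587 without BD 4 and BD 6) and by 0.61 in BD_VNS against NBD (adjusted p = 0.00215), and its BD_VNS level differed from BD by 0.065 (adjusted p = 0.690). Cth, which makes cysteine, rose by 0.55 in BD (adjusted p = 0.0233; without BD 4 and BD 6 the change was 0.45, adjusted p = 0.150) and by 0.46 in BD_VNS against NBD (adjusted p = 0.0418). Ddit4 encodes REDD1, an inhibitor of mTORC1 that glucocorticoids also induce. It was at 8.88, 8.91 and 9.11 in NBD, 8.25, 8.29, 8.91 and 8.44 in BD 1, 3, 4 and 6, and 8.17, 7.84, 8.19 and 8.14 in BD_VNS 1 to 4. BD_VNS lay below both other groups, and BD 4 lay at the level of NBD. Ddit4 fell by 0.88 in BD_VNS against NBD (adjusted p = 0.00354), and its change in BD against NBD was -0.49 (adjusted p = 0.0678) with all arrays and -0.69 (adjusted p = 0.00841) without BD 4 and BD 6.

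Of the same 23 genes, 1 rose and 1 fell in BD_VNS against BD, beside 5.56% of all probe sets called. In BD_VNS against NBD 2 rose and 4 fell, beside 8.44% of all probe sets called. Slc7a1, a cationic amino acid transporter, was at 8.34, 8.32 and 8.32 in NBD, 8.48, 8.38, 8.60 and 8.52 in BD 1, 3, 4 and 6, and 8.65, 8.81, 8.69 and 8.70 in BD_VNS 1 to 4. The 3 groups followed each other without overlap. It rose by 0.22 in BD_VNS against BD (adjusted p = 0.0280, and 0.28 with adjusted p = 0.0431 without BD 4 and BD 6) and by 0.38 in BD_VNS against NBD (adjusted p = 0.00164). Vldlr, a lipoprotein receptor that ATF4 induces, fell by 0.38 in BD_VNS against BD (adjusted p = 0.00319, and 0.0310 without BD 4 and BD 6) and by 0.29 against NBD (adjusted p = 0.00568). Cebpg, a partner of ATF4, fell by 0.15 in BD_VNS against NBD (adjusted p = 0.0332) and lies outside the rule for named genes.

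Of 11 cytosolic tRNA synthetases, 0 passed with limma either after brain death or between BD and BD_VNS (1 with an unadjusted p under 0.05 in each), and Iars1, which charges isoleucine, rose by 0.36 in BD_VNS against NBD (adjusted p = 0.0220). Of 10 genes of eIF2 and its control, Eif2s2, the beta subunit, rose by 0.20 in BD (adjusted p = 0.0285). Eif2ak1, the kinase that senses heme deficiency, rose by 0.31 in BD_VNS against BD (adjusted p = 0.0383), as did Eif2b5, a subunit of the exchange factor, by 0.15 (adjusted p = 0.0377). Eif2b3, another subunit, fell by 0.23 in BD_VNS against NBD (adjusted p = 0.0317). The calls on Eif2s2, Eif2ak1 and Eif2b5 were lost without BD 4 and BD 6 (adjusted p = 0.135, 0.181 and 0.239). With the 3' end signal ratio in the model, 0 of the 10 rose and 1 fell in BD_VNS against BD. The calls on Eif2ak1 and Eif2b5 were thus not made there either.

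Of 21 genes of ER import and other sensors, 2 rose and 1 fell in BD against NBD, and the 2 rises were lost without BD 4 and BD 6. Creb3l3, a membrane-bound transcription factor of liver and intestine that is cut like ATF6, was at 11.83, 11.93 and 11.97 in NBD, 11.59, 11.09, 11.39 and 11.28 in BD 1, 3, 4 and 6, and 11.68, 11.67, 11.52 and 11.52 in BD_VNS 1 to 4. NBD lay above all other arrays, and Creb3l3 fell by 0.57 in BD (adjusted p = 0.00471, and 0.0382 without BD 4 and BD 6). Its difference between BD_VNS and NBD was -0.31 (adjusted p = 0.0695). Mbtps1, the protease that makes the first cut in ATF6, rose by 0.18 (adjusted p = 0.0464), and Tram1, a translocon protein, by 0.16 (adjusted p = 0.0491). In BD_VNS against BD, Sec11c, a signal peptidase subunit, fell by 0.49 (adjusted p = 0.0456). It was 0.54 higher in BD 4 than the mean of BD 1 and BD 3. Without BD 4 and BD 6 the change was -0.32 (adjusted p = 0.174). With the 3' end signal ratio in the model, 0 of the 21 fell in this comparison. None of the 21 passed with limma between NBD and BD_VNS (5 with an unadjusted p under 0.05).

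**Figure D5:**
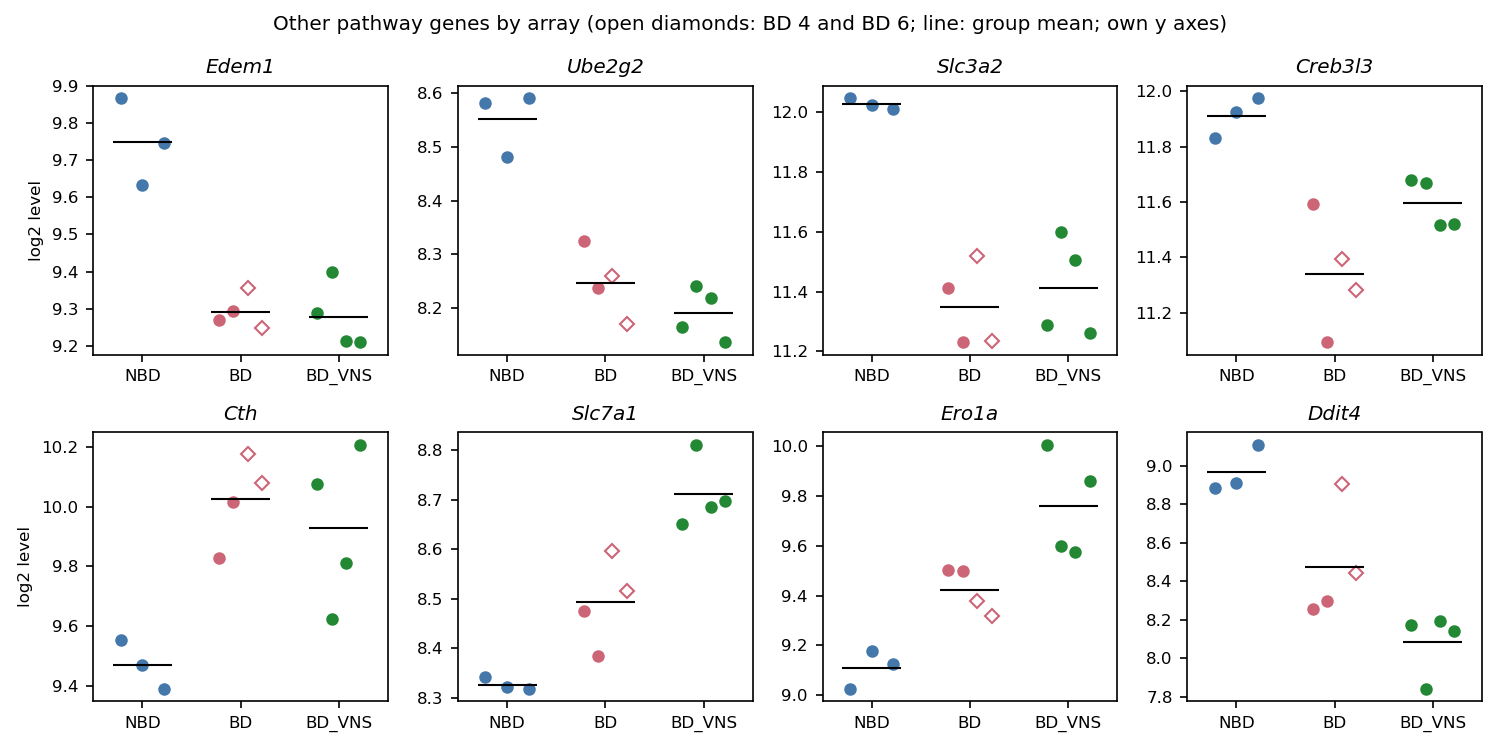
Log2 level (y axis, a separate scale per panel) of 8 other pathway genes in every array of NBD, BD and BD_VNS (x axis); points are arrays, open diamonds are BD 4 and BD 6, and lines are group means. Edem1, Ube2g2, Slc3a2 and Creb3l3 are higher in all 3 NBD arrays than in the 8 others, and the Ero1a and Slc7a1 groups do not overlap.

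The genes whose levels were most like those of single members are given as a description by Pearson's r, over 11 arrays that share the group differences. For Herpud1 they were Adgrf5 (0.97), Vhl (0.97) and Rig1 (0.94), and over the 9 arrays without BD 4 and BD 6 they were Slc22a23, Spsb1 and Cdx1 (each 0.98 to 0.99). For Ddit3 they were Zfp709 (0.96), Fbxo33 (0.92) and Parp4 (0.92), and over the 9 arrays Zfp709 (0.97), Sbds (0.96) and Ttf2 (0.95). For Atf4 they were Dnajc21 (0.91), Zfr (0.87) and Dus2 (0.86), and over the 9 arrays Zfr (0.94), Emc2 (0.91) and Adck5 (0.90). For Xbp1 they were P2rx4, Eif1ad and Sar1a (each 0.90), and over the 9 arrays Dtx4 (0.96), Msh5 (0.94) and A3galt2 (0.94). Zfp709 and Zfr were the 2 genes named for the same member over both sets of arrays.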

How the data were processed

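Total RNA of small intestine was extracted with Trizol and made into biotin-labelled cRNA for Affymetrix arrays, per the labels' protocols. The authors deposited 1 table of log2 values, whose normalization is not stated in the labels or the table. The log2 scale was read from the range of the values (5.36 to 14.48), and array medians were 7.89 to 7.93. Of 11484 probe sets, 57 controls were left out, and the other 11427, unfiltered, entered the tests. A symbol was given for 11018 of them. Probe sets carry Entrez gene numbers, 1 per gene. The number for Nupr1 (113900) was matched through the platform annotation, since the reference lists Nupr1 under 100912108.

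Arrays were grouped by title. The title was followed for NBD, though its source label also names brain-dead rats. One model over the 3 groups was fitted by lmFit and eBayes of limma 3.58.1 (R 4.3.3) and tested on simulated data, and p-values were adjusted over all probe sets. Members and lists were chosen with earlier results of these data known. Named were all members, up to 4 passing genes per list and comparison by p, the 3 most abundant genes of each marker list, and the 3 genes most correlated with Atf4, Ddit3, Xbp1 and Herpud1. Markers that passed were also named, after their values were seen. Alternatives are listed in the closing section. No batch is given in the labels. The number of arrays limits the precision.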

Additional observations from a re-analysis of the deposited data

How the results depend on the processing

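Alternatives were quantile normalization, median centring, a trended robust variance, a filter that removed the dimmest 25% or 50% of probe sets, a fit of only 2 groups, array weights, a replicate block, an adjusted p under 0.10, the 3' to 5' ratio or the acinar level as a covariate, BD 4 and BD 6 left out, and each array left out in turn. Of 687 refitted changes of single members, 633 kept direction and call, 18 lost the call, 12 gained it and 24 changed sign. Several alternatives cannot alter the size of a change, only whether it passes. These are the robust variance, the filters, the fit of 2 groups, the looser threshold and leaving out an array of the third group. In each comparison only 1 of the 10 members had passed, so most kept calls are of changes that had not passed. Of the changed signs, none belonged to a change that had passed. For these, the cause was not tested.

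In BD against NBD, where 655 genes, 1 member and 8 other pathway genes passed, the counts were 1642, 2 and 19 with array weights, 363, 0 and 5 with the replicate block, and 1036, 2 and 14 at an adjusted p under 0.10. Genes and pathway genes were 293 and 5 without BD 4 and BD 6, and 366 and 5 with the acinar covariate. Leaving out 1 array gave 317 (without NBD 3) to 882 (without BD_VNS 2) genes, 0 to 1 members and 4 to 12 pathway genes. In BD_VNS against BD (635, 1 and 6), the counts were 343, 0 and 1 with only the 2 groups, 1628, 3 and 13 with array weights, 402, 0 and 2 with the replicate block, and 341, 0 and 2 with the acinar covariate. The robust variance gave 0 members, an adjusted p under 0.10 gave 1265 genes and 2 members, the 3' to 5' covariate gave 415 genes, and leaving out BD 4 and BD 6 gave 152 genes and 2 pathway genes. Leaving out 1 array gave 279 (without BD_VNS 4) to 1108 (without BD_VNS 2) genes, 0 to 2 members and 1 to 13 pathway genes. In BD_VNS against NBD (965, 1 and 12), the counts were 2599, 2 and 29 with array weights. An adjusted p under 0.10 gave 1545 genes, the 3' to 5' covariate 363 genes and 0 members, and only the 2 groups, or leaving out BD 4 and BD 6, 2 members. Leaving out 1 array gave 494 (without NBD 1) to 1638 (without BD_VNS 2) genes, 1 to 2 members and 7 to 20 pathway genes.

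Xbp1 in BD against NBD (0.012) was -0.019 with quantile normalization, -0.0056 with median centring, -0.038 with array weights, -0.066 without BD 4 and BD 6, -0.070 with the acinar covariate, and -0.046 to 0.054 with 1 array left out. In BD_VNS against BD, with array weights and with the replicate block, Atf6 was -0.035 and -0.044 and Ddit3 was 0.042 and 0.013. With 1 array left out Atf6 was -0.048 to 0.088, Ddit3 -0.11 to 0.044 and Herpud1 -0.12 to 0.0031. In BD_VNS against NBD, Atf4 was 0.076 with array weights, 0.072 with the replicate block and -0.12 to 0.072 with 1 array left out, and with the 3' to 5' covariate Atf6 was 0.17, Ddit3 -0.025 and Ppp1r15a -0.0014. Same-numbered arrays did not deviate together (correlations of deviations from group means -0.24 to 0.071, and -0.22 to 0.19 for differently numbered arrays). With 3 or 4 arrays a group this check cannot exclude a pairing by number. With the block, Herpud1 in BD against NBD had an adjusted p of 0.0806.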
